A study of Mus musculus with 6 samples.

Results

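The genes described here are 10 members of the apolipoprotein and lipoprotein assembly group, Apoa1, Apoa2, Apoa4, Apoa5, Apob, Apoc1, Apoc3, Apoe, Apom and Mttp, taken by symbol from a table of 34745 mouse genes. All 10 symbols were found. Their transcripts were quantified by RNA sequencing of tumours formed by Hep1-6, a mouse hepatoma cell line, placed under the skin of C57BL/6J mice. There were 2 groups with 3 tumours in each, one from mice fed a normal diet (ND 1 to ND 3) and the other from mice fed a high cholesterol diet (HCD 1 to HCD 3). Values of a group are given in the order 1, 2, 3. The groups shared the cell line, the mouse strain and the injection route, and differed in diet, as far as the labels say. Hep1-6 is a single established line, and each tumour also holds cells of its host. The labels give neither the length of the diet nor the animals' age, and do not state that each tumour came from a different mouse, so the p-values cover the sample-to-sample spread alone, which may be technical.

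Apolipoproteins are the protein coat of the plasma lipoproteins, which carry cholesterol and triglyceride between tissues. Apob is the structural protein of chylomicrons, VLDL and LDL, and Mttp, the microsomal triglyceride transfer protein, loads lipid onto it in the endoplasmic reticulum. Apoa1 and Apoa2 are the main proteins of HDL, Apoe is a ligand of lipoprotein receptors, and the C apolipoproteins, Apoa4 and Apoa5 are exchangeable proteins that act on lipolysis and uptake. In the adult body most of these genes are expressed in hepatocytes, several of them also in the intestine, and Apoe and Apoc1 also in macrophages.

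Library sizes implied by the data were 20351637 to 26228073 fragments, and 11495 to 12050 genes reached 1 FPKM (fragment counts scaled for gene length and library size) per library. Pairs of libraries had log2 correlations of 0.9596 to 0.9864. Markers of the hepatoma line were present in part. Alb, serum albumin, had a mean of 1407 FPKM and Krt18, a simple epithelial keratin, one of 1230 FPKM, while 8 of the 17 hepatoma and hepatocyte markers lay below a mean of 0.5 FPKM. Among the markers of other cells, the summed macrophage level (12 of 12 genes tested, Lyz2 and C1qa highest) was 291 to 648 FPKM in ND and 454 to 1059 FPKM in HCD. ND 1 had the lowest macrophage list mean and HCD 2 the highest. The endothelial list mean (7 of 7 tested, Plvap and Esam highest) was likewise lowest in ND 1 and highest in HCD 2. HCD 3 had the highest keratinocyte list mean (3 of 7 tested, Krt5 and Krt14 highest, Lor listed at 0 in each library). Skeletal muscle genes (8 of 8 tested, Acta1 and Ckm highest) were abundant in ND 2 and HCD 1, with sums of 723 and 837 FPKM. They summed to 80.3 FPKM in HCD 2, and to 5.64, 12.5 and 6.66 FPKM in ND 1, ND 3 and HCD 3. Summed levels in ND and HCD were 9.40 to 17.4 and 7.67 to 26.5 FPKM for adipocyte genes (3 of 9 tested, Fabp4 and Cfd highest). For fibroblast genes (7 of 7 tested, Dcn and Col1a1 highest) they were 916 to 1117 and 826 to 1024 FPKM, most of it Dcn, while the list mean was highest in HCD 2 and lowest in HCD 3. Enterocyte genes (2 of 6 tested, Vil1 and Fabp2) summed to 59.5 to 68.2 and 49.1 to 71.1 FPKM, nearly all of it Vil1, with Cdx1 listed at 0 and Lct, Sis and Cdx2 below 0.1 FPKM in each library. In bulk tissue, fewer cells of a type and less RNA per cell cannot be told apart.

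The members ranged from abundant to nearly silent genes. Mean levels over the 6 libraries were 642 FPKM for Apoe, 41.3 FPKM for Apoa1, 25.7 FPKM for Apob, 7.48 FPKM for Mttp and 2.24 FPKM for Apoc1. The other 5 members, Apoa2, Apom, Apoa5, Apoc3 and Apoa4, had means of at most 0.298 FPKM. Apoe ranked 41 among all genes by mean FPKM, Apoa1 959 and Apob 1696. Apoe alone made up 87.1 to 91.0% of the summed FPKM of the 10 genes in each library, and the 10 genes together made up 0.205 to 0.327% of all FPKM.

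**Figure D1:**
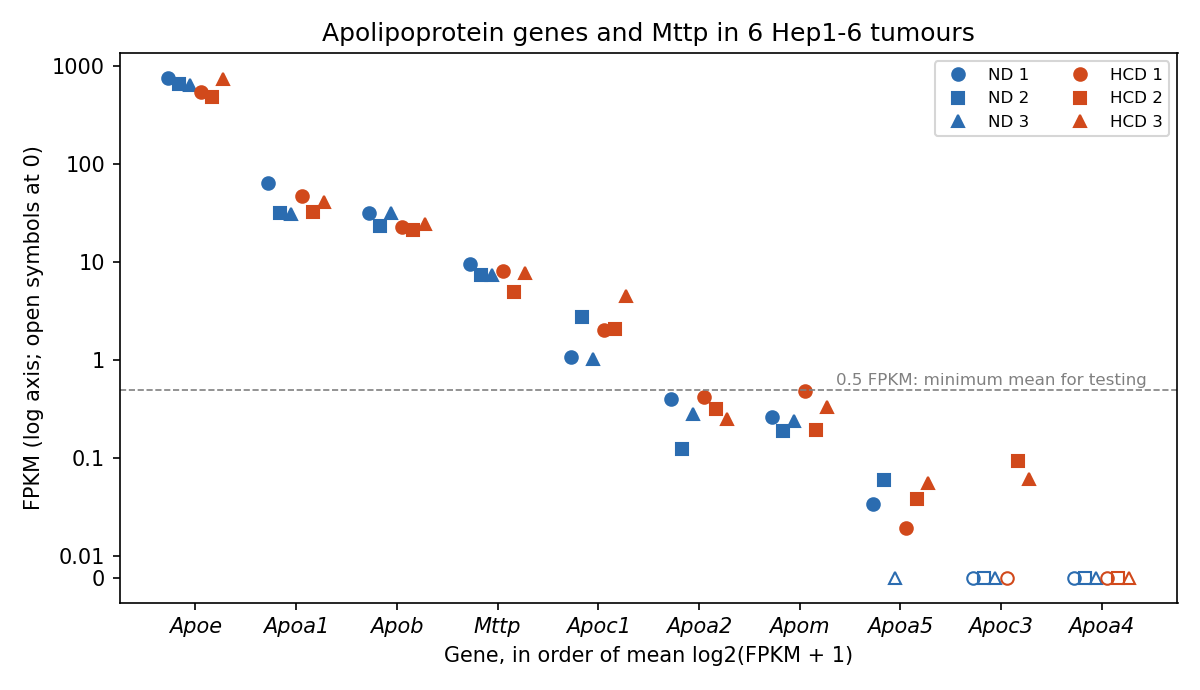
FPKM of each member gene in each of the 6 tumours on a log axis, with ND libraries in blue, HCD libraries in orange and values of 0 as open symbols. Apoe lies near 642 FPKM, 4 further genes lie above the dashed line at 0.5 FPKM, and 5 genes lie below it.

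Neighbours in the order of levels were compared within libraries by an exact two-sided sign-flip permutation test on log2(FPKM + 1), adjusted over the 9 pairs. Apoe lay above Apoa1, Apob above Mttp, Mttp above Apoc1, Apoc1 above Apoa2 and Apom above Apoa5 in 6 of 6 libraries. For each of these 5 pairs the exact p was 0.0312, the smallest that 6 libraries can give, and the adjusted p was 0.0563, so no pair passed 0.05. With the exact p at its smallest, the adjusted p depended on how many of the 9 pairs reached it, not on the size of the gap. Apoa1 was above Apob in 5 of 6 libraries (exact p = 0.0625, adjusted p = 0.0938). Apoa2 and Apom (3 of 6 libraries, exact p = 0.75) and Apoa5 and Apoc3 (3 of 6, exact p = 0.688) did not differ from each other beyond the spread. Apoc3 and Apoa4 could not be told apart by this test, since only 2 libraries had any Apoc3 read and the exact p could not go below 0.5. The pairs were ordered by the levels that were then compared, so their direction is a description. FPKM depends on the gene length used. For the 8 members whose length could be derived from the values, it ran from 0.824 times the GENCODE M21 exon length for Apoc1 to 2.86 times for Apoa2, and was 1.27 times for Apob. Per M21 exon length, Apoa2 would have a mean of 0.854 and Apob one of 32.6, and 8 of the 9 neighbouring pairs kept their order, the exception being Apoa5 and Apoc3.

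Apoa1 and 3 neighbours form a cluster of 43340 bp on chromosome 9, in which Apoa1 was the one gene above 0.1 FPKM. Apoa1 (ENSMUSG00000032083, chromosome 9, 46228580 to 46230466, plus strand, GENCODE M21, build GRCm38, equivalent to mm10) encodes the scaffold protein of HDL. It stood at 64.6, 31.7 and 31 FPKM on the normal diet and at 47.3, 32.4 and 40.6 FPKM on the high cholesterol diet, from 948 to 2190 reads per library. ND 1 was the highest library and ND 3 the lowest, so that the HCD values lay inside the ND range.

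Apoc3, an inhibitor of lipoprotein lipase on the opposite strand (46232933 to 46235636), lies 2466 bp from the end of Apoa1. It had 0 reads in ND 1, ND 2, ND 3 and HCD 1, 3 reads in HCD 2 and 2 reads in HCD 3. A count of 0 allows up to 3 reads, or 0.0738 to 0.0952 FPKM, and the highest value was 0.0942 FPKM. Apoa4, a protein of chylomicrons and HDL (46240696 to 46243459), had 0 reads in each of the 6 libraries, which allows at most 0.0630 to 0.0812 FPKM at its M21 length. Apoa5, an activator of triglyceride lipolysis in plasma (46268633 to 46271919), had 2, 4 and 0 reads on the normal diet and 1, 2 and 3 reads on the high cholesterol diet. These floors cover counting error only.

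The bases before the start sites of 4 members are shown because the data put them at opposite ends of the range: Apoe, Apoa1 and Apob were abundant and Apoa5 was nearly silent. RefSeq start sites (GRCm38.p6) were available for 8 of the 10 members, Apoc1 and Apoc3 being the others. The window ran from 250 bases before the start site to the base before it. Stretches that carry annotated exons were left out, so that Apoa1 (bases -250 to -51) and Apob (bases -250 to -30) are shown in part. The stretches are chr9:46228380-46228579 for Apoa1, chr9:46268358-46268607 for Apoa5 and chr12:7977427-7977647 for Apob, all on the plus strand, and chr7:19699189-19699438 on the minus strand for Apoe, each written 5′ to 3′ along its gene. Capitals mark matches, on either strand, to TATAAA, the core promoter box of that name, and to CAAAGNNCA, a form of the site bound by the hepatocyte nuclear receptor Hnf4a.
Apoa1: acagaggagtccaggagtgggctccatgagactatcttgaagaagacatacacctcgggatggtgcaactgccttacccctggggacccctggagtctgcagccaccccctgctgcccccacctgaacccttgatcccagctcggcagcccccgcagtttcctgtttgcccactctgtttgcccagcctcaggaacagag
Apoa5: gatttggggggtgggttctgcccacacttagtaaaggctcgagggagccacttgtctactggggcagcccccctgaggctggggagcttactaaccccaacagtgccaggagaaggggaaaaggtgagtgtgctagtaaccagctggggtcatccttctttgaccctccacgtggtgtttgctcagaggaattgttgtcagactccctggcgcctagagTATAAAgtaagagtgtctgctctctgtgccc
Apoe: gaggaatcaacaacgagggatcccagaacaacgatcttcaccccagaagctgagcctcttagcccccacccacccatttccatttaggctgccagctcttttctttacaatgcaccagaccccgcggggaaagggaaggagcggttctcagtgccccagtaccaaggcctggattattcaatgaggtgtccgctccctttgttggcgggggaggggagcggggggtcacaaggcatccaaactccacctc
Apob: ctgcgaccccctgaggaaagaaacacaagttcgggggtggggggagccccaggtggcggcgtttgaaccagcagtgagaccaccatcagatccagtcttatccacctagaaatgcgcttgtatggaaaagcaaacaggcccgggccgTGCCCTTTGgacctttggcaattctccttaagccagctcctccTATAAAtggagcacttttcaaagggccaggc
Counted back from the start site, Apob had TATAAA at -60 to -55 and CAAAGNNCA on the opposite strand at -103 to -95. Apoa5 had TATAAA at -31 to -26 from the start site shown, which is -56 to -51 from its other start site, the one that matches the GENCODE gene start. The GENCODE gene starts of Apob (7977648) and Apoa1 (46228580) directly follow the stretches shown. Counted from its GENCODE start, the Apob TATAAA lies as near as the Apoa5 TATAAA does to the Apoa5 start site shown. Neither motif was found in the windows of Apoa1 and of the Apoe start site shown, and the other Apoe start site had TATAAA at -96 to -91. Apoa4, at 0 reads, had CAAAGNNCA at -182 to -174, and Apoa2 had TATAAA at -212 to -207. Over 32851 windows of the same length, 12.4% held TATAAA and 5.49% held CAAAGNNCA. A sterol response element was searched in the same way and had no match in the 8 members, against 0.192% of all windows. A match describes letters in this window and is not a site shown to be used. Other forms of the Hnf4a site were not searched, so a window without a match may still hold one.

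The cluster on chromosome 7, which spans 27610 bp, was expressed along its length. Apoe (ENSMUSG00000002985, 19696109 to 19699188, minus strand), the ligand through which remnant lipoproteins bind their receptors, was at 760, 660 and 652 FPKM on the normal diet and at 547, 487 and 748 FPKM on the high cholesterol diet. HCD 1 and HCD 2 lay below each ND library, while HCD 3 lay inside the ND range. These levels rest on about 21277 to 37143 reads per library.

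Apoc1, an inhibitor of receptor-mediated remnant uptake (ENSMUSG00000040564, 19689481 to 19692660), ends 3448 bp before Apoe begins on the map, yet stood far below it. It had 15, 44 and 13 reads on the normal diet and 25, 26 and 58 on the high cholesterol diet. In FPKM these were 1.07, 2.74 and 1.03 in ND and 2.00, 2.08 and 4.52 in HCD. ND 2 lay above HCD 1 and HCD 2, so the groups overlapped. Apoc2, the cofactor of lipoprotein lipase, and Apoc4, a minor VLDL protein, are the remaining genes of the cluster and are not members. Their means were 49.3 and 21.05 FPKM. Apoc2 and Apoc4 lie 141 bp apart. A further gene annotated in GENCODE M21, Gm44805, overlaps both on the same strand but is not among the quantified genes. How reads of such a transcript would be divided between Apoc2 and Apoc4 is not known from the sources used here.

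**Figure D2:**
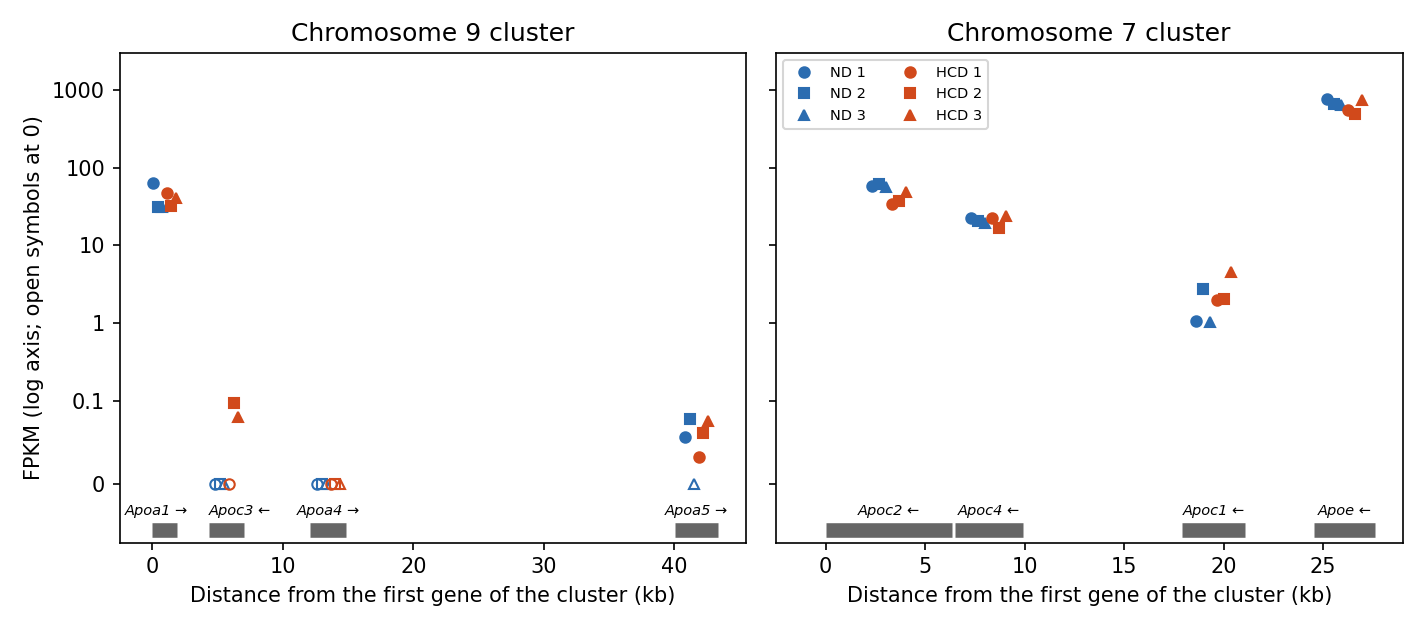
FPKM (log axis, open symbols at 0) of the genes in the chromosome 9 and chromosome 7 clusters, placed by distance in kb from the first gene of each, with gene bodies as grey bars and arrows for strand. In the chromosome 9 cluster Apoa1 is at 31 FPKM or more while its 3 neighbours are below 0.1 FPKM, and in the chromosome 7 cluster Apoc1 lies below the other 3 genes in each library.

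Apob and Mttp, the genes that form the Apob-containing particles, were both expressed. Apob (ENSMUSG00000020609, chromosome 12, 7977648 to 8016835, plus strand) was at 31.5, 23.3 and 31.5 FPKM on the normal diet and at 22.8, 21.1 and 24.3 FPKM on the high cholesterol diet. ND 1 and ND 3 lay above the HCD libraries, and ND 2 lay among them. Mttp (ENSMUSG00000028158, chromosome 3, 138089854 to 138144968, minus strand) was at 9.51, 7.34 and 7.33 FPKM on the normal diet and at 8.05, 4.93 and 7.71 FPKM on the high cholesterol diet. ND 1 was the highest and HCD 2 the lowest Mttp library, and the groups overlapped. The ratio of Apob to Mttp in FPKM was 3.31, 3.17 and 4.29 on the normal diet and 2.84, 4.27 and 3.15 on the high cholesterol diet. Trmt10a, a transfer RNA methyltransferase gene with at most 1.58 FPKM, overlaps Mttp on the opposite strand, and whether strand was used to assign reads is not known from the sources used here.

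Apoa2 and Apom, both proteins of HDL, were close to the limit of detection. Apoa2 (ENSMUSG00000005681, chromosome 1, 171225054 to 171226379) had 14, 5 and 9 reads on the normal diet and 13, 10 and 8 on the high cholesterol diet. Apom (ENSMUSG00000024391, chromosome 17, 35128997 to 35132050), a carrier of sphingosine 1-phosphate, had 6, 5 and 5 reads on the normal diet and 10, 4 and 7 on the high cholesterol diet. For both genes the groups overlapped. The 5 members below a mean of 0.5 FPKM were left out of the main test. An alternative without that filter took in every gene with a value above 0 and called 0 genes.

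The comparison of HCD with ND asks whether apolipoprotein transcripts of the tumour differ with dietary cholesterol. None of the 5 tested members passed limma's test at an adjusted p of 0.05. Over 13417 tested genes limma called 0, or 0.00%, and 789 genes, or 5.88%, had an unadjusted p under 0.05, 3.32% lower and 2.56% higher in HCD. Limma-voom on recovered reads called 0 genes as well. With upper-quartile scaling the genes with an unadjusted p under 0.05 were 207 higher and 538 lower, beside 343 higher and 446 lower without it. Of the 5 members 4 had a lower mean in HCD, against 44.3% of all tested genes, or 5942 of them. With libraries scaled to the hepatoma markers, a choice made after seeing the data, 9684 genes had a lower mean and the median of all genes moved from 0.02 to -0.08. No member had groups that did not overlap, against 12.1% of all tested genes (6.13% lower and 5.98% higher in HCD). The median log2 difference of the 5 was -0.21, beside 0.02 over all tested genes.

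Apob had the lowest p of the members. Its mean was 28.7 ± 4.74 FPKM under ND and 22.7 ± 1.59 FPKM under HCD (SD, n = 3), and its log2 difference was -0.32 (SE 0.129, 95% interval -0.63 to -0.004, adjusted p = 0.794). It was the one member with an unadjusted p under 0.05. Apoe had means of 691 ± 60.1 and 594 ± 136 FPKM (SD, n = 3) and a log2 difference of -0.24 (95% interval -0.64 to 0.17, adjusted p = 0.795). Without HCD 2 that difference was -0.11, and without HCD 3 it was -0.41. HCD 2, the lowest library for Apoe, Apob and Mttp, had the highest macrophage and endothelial list means and the lowest hepatoma list mean. The centred hepatoma mean was -0.165 there and -0.119 in ND 2. Of the tested hepatoma markers, Alb and Rbp4 were lowest in HCD 2. Krt8 and Krt18 were lowest in HCD 1, and Afp, Ttr, Tat, Fgb and Trf in ND libraries. The part of cell composition in these differences was not tested. Under the hepatoma scaling Apoe differed by -0.36 and Apob by -0.43, neither of them called.

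Mttp had means of 8.06 ± 1.26 and 6.90 ± 1.71 FPKM (SD, n = 3) and a log2 difference of -0.21 (95% interval -0.67 to 0.24, adjusted p = 0.814). Without HCD 2 the Mttp difference was -0.02, and without ND 1 it was -0.10. For Apoa1 the means were 42.4 ± 19.2 and 40.1 ± 7.48 FPKM (SD, n = 3), a log2 difference of -0.01 (95% interval -0.74 to 0.72, adjusted p = 0.994). Its direction turned without ND 1, to 0.33, and without HCD 2, to 0.13. Apoc1 had the higher mean in HCD, 2.87 ± 1.43 against 1.61 ± 0.975 FPKM (SD, n = 3). On the log2 scale it differed by 0.57 (95% interval -0.24 to 1.37, adjusted p = 0.794), which was 0.28 without HCD 3 and 0.86 without ND 2. The keratinocyte markers Krt5 and Krt14 were highest in the same library, HCD 3, where the list summed to 14.7 FPKM. Krt10, also tested, was highest in ND 3, at 1.60 FPKM. The part of these markers in the result was not tested. Among the 5 intervals that of Apob was the narrowest and that of Apoc1 the widest.

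**Figure D3:**
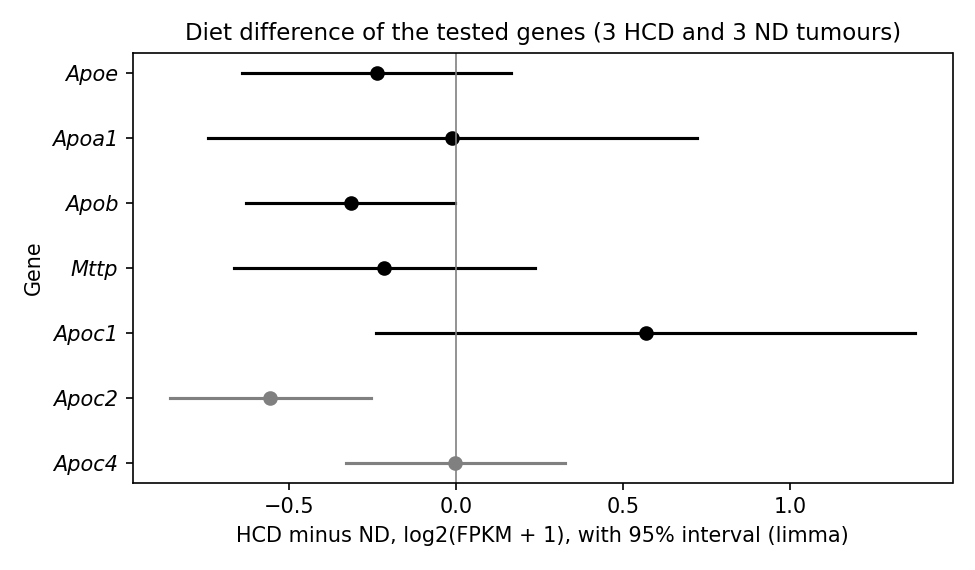
Log2(FPKM + 1) difference, HCD minus ND, with its 95% interval from limma, for the 5 tested members (black) and for Apoc2 and Apoc4 (grey). The intervals of Apob and Apoc2 lie below 0, and neither gene passed after adjustment.

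Of the 5 tested members, ND 1 was the highest library for 3 (Apoe, Apoa1 and Mttp), ND 3 for Apob and HCD 3 for Apoc1. HCD 2 was the lowest for Apoe, Apob and Mttp, and ND 3 the lowest for Apoa1 and Apoc1. The highest library exceeded the lowest 1.49 times for Apob, 1.56 times for Apoe, 1.93 times for Mttp, 2.08 times for Apoa1 and 4.40 times for Apoc1.

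**Figure D4:**
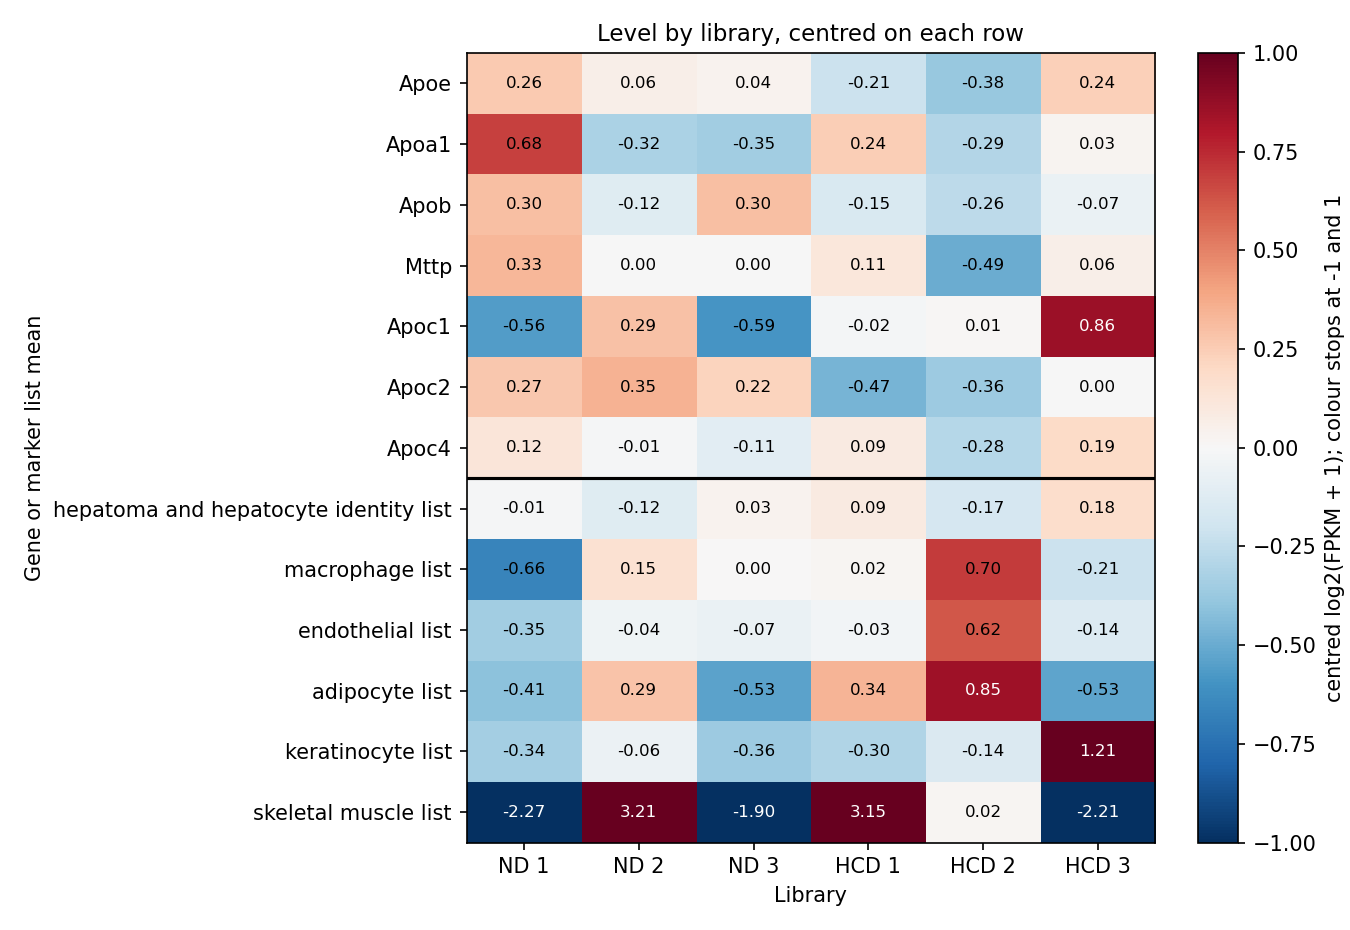
Log2(FPKM + 1) of the tested members, Apoc2, Apoc4 and the means of 6 marker lists, each centred on its own mean over the 6 libraries, with the value printed in each cell and colours stopping at -1 and 1. Apoa1 stands at 0.68 in ND 1, Apoc1 at 0.86 in HCD 3 and Mttp at -0.49 in HCD 2, where the macrophage list is at 0.70.

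Apoc1 varied most, with an SD of 0.54 on the log2 scale. Its levels rest on 13 to 58 reads per library, and the part of counting error in that spread was not tested. The 5 tested genes nearest to its centred profile over the 6 libraries, by root mean square difference, were Gpx2 (0.140), Gulo (0.177), Gstm1 (0.189), Nqo1 (0.224) and Krt5 (0.264). The median over all tested genes was 0.511. Gpx2 encodes a glutathione peroxidase, Gulo the last enzyme of ascorbate synthesis, Gstm1 a glutathione transferase, Nqo1 a quinone reductase and Krt5 a basal keratin. Gpx2 was low, from 0.205 FPKM in ND 1 to 1.52 FPKM in HCD 3, a range where log2(FPKM + 1) understates changes. Gulo was at 5.99, 15.2 and 6.29 FPKM on the normal diet and at 8.81, 12.6 and 22.2 FPKM on the high cholesterol diet. Like Apoc1 it was highest in HCD 3, and the lowest values of both fell in ND 1 and ND 3. With 6 libraries and 13417 genes, near profiles are a description.

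Further genes, called apolipoproteins or linked to lipoprotein metabolism, were taken from 6 lists of 94 genes, of which 70 were tested. None passed the test. The HCD mean was the higher one for 38 genes and the lower one for 32, beside 7475 and 5942 of all 13417 tested genes. Of the 70, 3 had an unadjusted p under 0.05 (Apoc2, Lpl and Mylip, the last named after its values were seen), against 5.88% of all tested genes, and 4 had groups that did not overlap, against 12.1%. Neither count is above the share over all genes. Among the other apolipoproteins, 10 of 17 were tested, 7 higher and 3 lower, with a median log2 difference of 0.25. The 3 lower were Apoc2, Clu and Apoc4. The 7 higher, named after their values were seen, were Apod, Apoo, Apool, Apol6, Apol9a, Apol9b and Apol10b. The list mean was lowest in ND 1 (-0.50 from its own mean) and highest in HCD 2 (0.33). The macrophage and endothelial lists had their lowest and highest means in the same libraries, and their part in the result was not tested. Apoc2 was at 58.3, 61.5 and 56.3 FPKM on the normal diet and at 34.6, 37.2 and 48.1 FPKM on the high cholesterol diet. Each HCD library lay below each ND library, as in 6.13% of all tested genes. Its log2 difference was -0.56 (SE 0.124, 95% interval -0.86 to -0.26, adjusted p = 0.794), and -0.69 to -0.46 with each library left out in turn.

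Apoc4, next to Apoc2, was at 22.8, 20.8 and 19.3 FPKM on the normal diet and at 22.3, 17.0 and 24.0 FPKM on the high cholesterol diet, a log2 difference of -0.002 (adjusted p = 0.997) that turned to 0.06 without ND 1 and to 0.14 without HCD 2. The ratio of Apoc2 to Apoc4 was 2.55, 2.96 and 2.91 on the normal diet and 1.55, 2.19 and 2.00 on the high cholesterol diet. This ratio was chosen after its values were seen. Clu, also called apolipoprotein J, had the highest mean of the list, 75.7 FPKM, and differed by -0.27 (adjusted p = 0.794).

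For assembly and secretion 13 of 16 genes were tested, 4 higher and 9 lower, with a median of -0.03. P4hb, the disulfide isomerase that is the partner subunit of Mttp, had a mean of 313 FPKM and differed by -0.11 (adjusted p = 0.825). Hsp90b1, an endoplasmic reticulum chaperone, had a mean of 115 FPKM and differed by -0.02. Apobec1, the deaminase that edits Apob mRNA, was expressed at 6.08 to 10.1 FPKM over the 6 libraries and differed by 0.13 (adjusted p = 0.870). Its cofactor A1cf, named after its values were seen, had a mean of 0.136 FPKM and was left out of the main test. Mia3, a cargo receptor of the secretory pathway named after its values were seen, was the 1 gene of 13 whose groups did not overlap (-0.17, adjusted p = 0.794), against 12.1% of all tested genes.

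Receptors and uptake genes were tested in 12 of 14 cases, 3 higher and 9 lower, with a median of -0.03. Lrp1, a receptor of remnant lipoproteins, had a mean of 28.4 FPKM, lay between 25.6 and 32.0 FPKM over the 6 libraries and differed by -0.04 (adjusted p = 0.923).

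Of the lipases and remodelling genes, 9 of the 13 found were tested, 7 higher and 2 lower, with a median of 0.13. Lpl, lipoprotein lipase, which Apoc2 activates, was at 21.9, 32.0 and 23.1 FPKM on the normal diet and at 30.04, 51.2 and 35.3 FPKM on the high cholesterol diet. Lpl differed by 0.56 on the log2 scale (95% interval 0.02 to 1.11, adjusted p = 0.794), with ND 2 above HCD 1. HCD 2, the highest Lpl library, also had the highest macrophage, adipocyte, endothelial and fibroblast list means. Their part in the result was not tested. Pltp, the phospholipid transfer protein, differed by 0.52 and was likewise highest in HCD 2, at 8.96 FPKM. Pon3, an HDL-bound lactonase, differed by 0.04. Pla2g7, a lipoprotein-bound phospholipase named after its values were seen, was the 1 gene of 9 with groups that did not overlap (0.53, adjusted p = 0.794), near the 12.1% of all tested genes.

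The HDL lipidation transporters, 3 of 4 tested, had a higher mean in HCD in 3 of 3 genes, with Abca1 at a mean of 18.2 FPKM and a difference of 0.38, and Abcg1 at 7.58 FPKM and 0.77 (adjusted p = 0.794 each). The list mean was lowest in ND 1 and highest in HCD 2, as for the macrophage and endothelial lists. The part of these cells in the result was not tested.

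Of 29 transcription factors of apolipoprotein genes 23 were tested, 14 higher and 9 lower, with a median of 0.05. Hnf4a was at 25.9, 17.9 and 25.4 FPKM on the normal diet and at 18.5, 16.8 and 18.4 FPKM on the high cholesterol diet, a log2 difference of -0.33 (95% interval -0.68 to 0.01, adjusted p = 0.794). As for Apob, ND 1 and ND 3 lay above the HCD libraries and ND 2 lay among them. Foxa2, a forkhead factor of liver, had a mean of 27.3 FPKM and differed by -0.04. Srebf2, the regulator of sterol synthesis genes, had the highest mean of the list, 52.6 FPKM, and differed by -0.26 (adjusted p = 0.794). Nr1h3, the sterol-activated receptor LXR alpha, had a mean of 2.44 FPKM and differed by 0.35. Creb3l3, an activator of Apoa4 and Apoa5 in liver, had a mean of 0.140 FPKM and was left out of the main test. Usf2, named after its values were seen, was the 1 factor of 23 whose groups did not overlap (0.16, adjusted p = 0.794), against 12.1% of all tested genes.

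**Figure D5:**
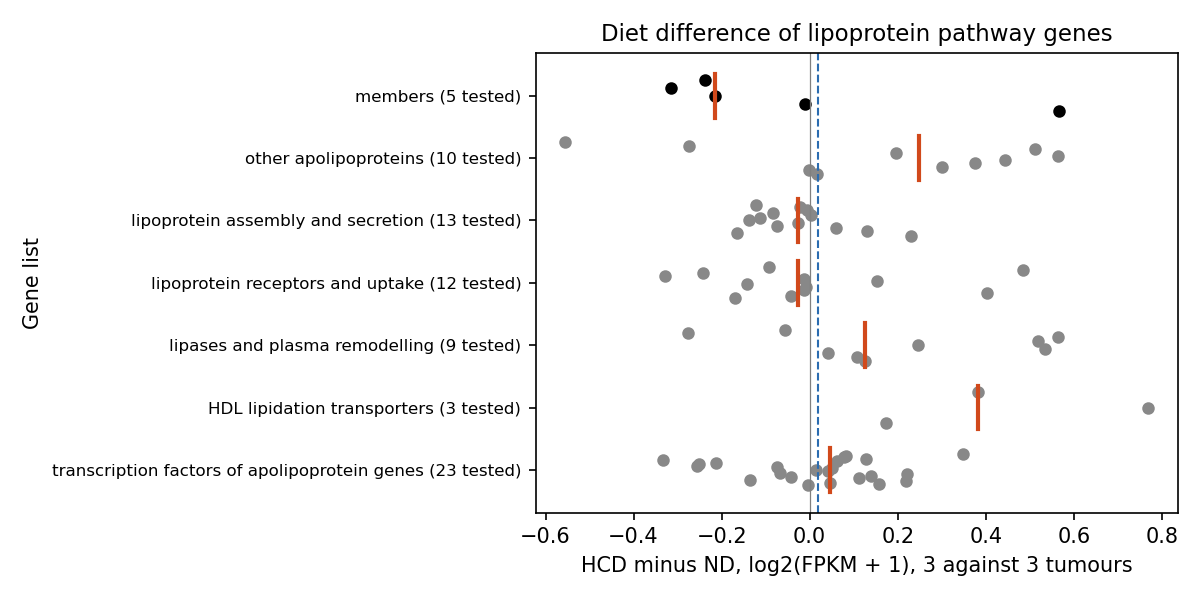
Log2(FPKM + 1) difference, HCD minus ND, of each tested gene in the member group (black) and in 6 lists of genes called apolipoproteins or linked to lipoprotein metabolism (grey). The list median is an orange bar and the median of all tested genes, 0.02, a dashed line. The member median is -0.21, and the list medians run from -0.03 for assembly and receptors to 0.38 for the HDL transporters.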

How the data were processed

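RNA from 6 tumours was sequenced after preparation with a paired-end TruSeq RNA kit, per the labels' protocols. The authors deposited FPKM values, 6 columns for 6 tumours. Tools listed without roles in the submitters' processing notes are CASAVA 1.8, TopHat2 2.0.9, edgeR and HTSeq, with build mm10; the annotation release was not given. The 13417 genes averaging 0.5 FPKM or more were tested on log2(FPKM + 1) with limma 3.58.1 in R 4.3.3, with diet as the only term, a variance trend, two-sided tests and Benjamini-Hochberg adjustment over all tested genes. That scale understates changes of low genes. The fit was tested on simulated data.

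Reads were recovered from the FPKM steps: a gene length was searched around the GENCODE M21 exon length for one that made all 6 values whole numbers (tolerance 0.02 reads, at most 20000 reads), and the nearest such length was kept. This succeeded for 98.05% of tested genes and for 0% of 1500 decoys whose values were altered at random. Apoe exceeds that limit, and its reads were computed with the M21 length. All 10 members were found in M21.

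Members and gene lists were chosen with earlier results of these data known. Named genes are the members, the 2 most abundant genes of each list (up to 4 called genes where any was called), and Apoc2, Apoc4, Lpl, Pltp, Apobec1, P4hb, Hnf4a, Nr1h3 and Creb3l3; some genes that the rule names are not reported here. Alternatives covered the pseudocount, filters, scaling, the variance trend, a replicate block, recovered reads and leaving out each library.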

Additional observations from a re-analysis of the deposited data

How the results depend on the processing

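The number of genes called was 0 higher and 0 lower in HCD in the alternatives run, with these exceptions: leaving out each library gave 0 to 0 higher and 0 to 1 lower (S100a9, -1.60, without ND 2), and scaling to the hepatoma markers gave 1 lower (Gm37689, -1.56); both were named after their values were seen. Neither is a member. No member was called under any alternative run. Apob, Apoe and Mttp kept a lower and Apoc1 a higher mean in each alternative, with log2 differences of -0.46 to -0.25, -0.41 to -0.11, -0.33 to -0.02 and 0.28 to 0.86. Apoa1 turned to 0.329 without ND 1 and to 0.131 without HCD 2, and was as low as -0.19 without ND 3. Apoc4 turned to 0.0571 without ND 1 and to 0.140 without HCD 2, and was -0.0980 without HCD 3 and, at its lowest, -0.12 under the hepatoma scaling. The cause was not tested. Apoe has no value under limma-voom because its reads exceed the limit of recovery. Of the 9 neighbouring pairs in the order of levels, 8 to 9 kept their order with a library left out.

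Same-numbered ND and HCD libraries had correlations of deviations of -0.19, 0.142 and 0.0588, so the numbers were not taken to pair the samples. With the replicate number as a block limma called 0 genes, with 353 higher and 400 lower at an unadjusted p under 0.05, against 343 and 446 without it. Apob kept -0.32 with an adjusted p of 0.794. At 3 tumours a group, the width of the intervals limits what can be resolved. The read numbers are a further limit for the 5 members below 0.5 FPKM and for Apoc1, at 13 to 58 reads per library. Scaling to hepatoma markers, which moves the median of all genes to -0.08, and reads per M21 length were chosen after seeing the data.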
